A study of Homo sapiens with 6 samples.

Results

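The MYC network is the set of leucine zipper transcription factors that meet on the common partner MAX. It was examined here through 8 genes: MYC itself, MAX, the MAX-binding repressors MXD1, MXI1, MXD3, MXD4 and MNT, and MGA, the largest protein of the group. Members were taken as every probe set of the array that the platform annotation gives to exactly 1 of these gene symbols. This gave 17 probe sets for 7 genes, out of 41091 probe sets with 1 gene symbol and 54675 in all. MXD4 has no single-gene probe set, because its 3 probe sets also carry a microRNA symbol, so it was not analysed here.

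The samples were SW480 cells, a widely used line from a human colon adenocarcinoma. The comparison set 3 arrays from cells transfected with CPEB3 and labelled as overexpressing it, an RNA-binding protein that regulates the translation of mRNAs, against 3 arrays from cells transfected with a negative control (NC). All 6 cultures were kept in the same medium with fetal calf serum, and total RNA was hybridised to Affymetrix arrays. The labels call the replicates biological but name no culture, day or clone, and they give neither the construct nor the time after transfection, so the p-values rest on the spread among these 6 samples, part of which may be technical.

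Values are normalized intensities after log2 was taken, and a difference is always the arrays labelled CPEB3 minus the arrays labelled NC. The 6 arrays had medians of 3.89 to 3.93 on this scale, which serves as a mark for dim probe sets. As deposited, CPEB3 mRNA was not called higher in the arrays labelled CPEB3 at any of its 4 probe sets, which goes against the labels. At its most variable probe set, 205773_at, it was 2.31 ± 0.21 in arrays labelled CPEB3 and 3.75 ± 0.21 in arrays labelled NC (SD, n = 3 each; limma, Benjamini-Hochberg adjusted p = 7.80e-05), and it was lower also at 239765_at (-0.35; limma, adjusted p = 0.00877) and 1555250_a_at (-0.25; limma, adjusted p = 0.0473). The group means of these 3 probe sets all lay below the array medians, in the dim range. The brightest probe set, 243651_at, differed by 0.049 (limma, adjusted p = 0.695). With spike-in centring, described further on, 243651_at was called higher (0.24, limma adjusted p = 0.0368) and 239765_at lost its call (-0.15, limma adjusted p = 0.177). The call at 1555250_a_at was lost there too, and on leaving out any 1 of the 6 arrays. That at 205773_at was kept under every alternative. A probe set outside the transfected sequence would not see a construct, and the positions of these probe sets were not analysed here. The reason for the lower values was not tested, and whether CPEB3 was raised in these arrays cannot be told from them. The groups are therefore named by their labels throughout, and the sign of every difference rests on those labels. Of 12 colon epithelial markers 2, CDH17 and LGALS4, lay below the array medians by their mean over the 6 arrays. The epithelial adhesion protein EPCAM was at 11.13 in arrays labelled CPEB3 and 11.09 in arrays labelled NC. Of 12 measured leukocyte markers 8 lay below the array medians. Among them was the leukocyte antigen PTPRC, at 1.62 in arrays labelled CPEB3 and 1.48 in arrays labelled NC.

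MYC and MAX bind DNA as a dimer at E-box elements and raise transcription of genes for ribosome assembly, metabolism and cell division. The MXD proteins and MNT compete for MAX, bind the same elements and recruit SIN3 and histone deacetylases, which lower transcription. MGA also dimerises with MAX and is a scaffold of a variant Polycomb complex, PRC1.6. In colorectal cancer cells the MYC gene is a well-known target of Wnt signalling, and MXD1 is known as a gene of differentiating cells.

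Transcripts of both the activator and its antagonists were lower in arrays labelled CPEB3. MXD1 fell to 45.0% of its NC level, MYC to 67.5% and MNT to 72.8%. MXI1 and 1 of the 4 MGA probe sets fell less, to 84.5% and 84.3%, and MAX and MXD3 did not pass the test on probe sets as deposited. In all, 6 of the 17 member probe sets passed the test as lower and 0 as higher (limma over 54613 probe sets, Benjamini-Hochberg adjusted p under 0.05). Over all probe sets 7.86% were lower by this rule and 6.59% higher. The groups did not overlap at 7 of the 17, all of them lower, where 14.9% of all probe sets had groups that did not overlap in this direction and 17.1% in the other. The arrays read RNA of whole cultures, so fewer cells expressing a gene and less of its RNA per cell cannot be told apart. The direction of the smaller differences depended on the scaling, as described after the members.

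**Figure D1:**
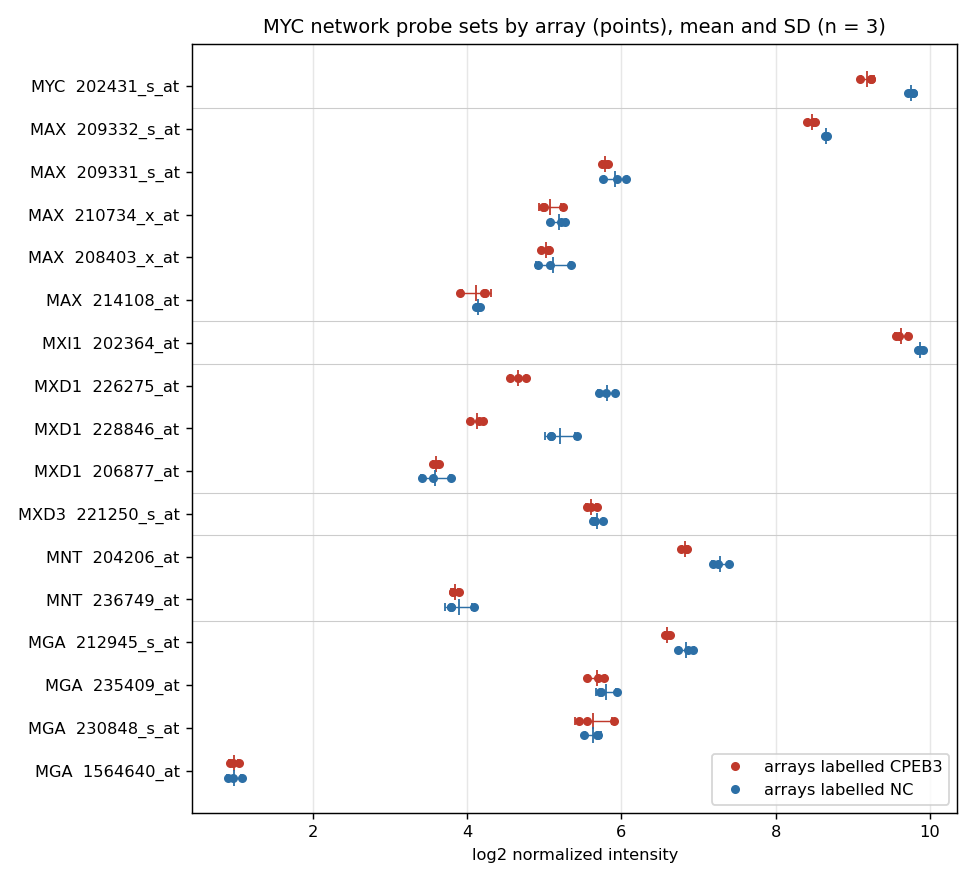
Log2 normalized intensity of the 17 MYC network probe sets (rows), with 1 point per array, a vertical tick at the group mean and a bar for the SD (n = 3 per group; arrays labelled CPEB3 above arrays labelled NC in each row). The groups are far apart at 2 of the 3 MXD1 probe sets and clearly separate at MYC and at the brighter MNT probe set, and they overlap at 10 of the 17 rows.

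MYC was read by 1 probe set, 202431_s_at. Its log2 intensity was 9.23, 9.24 and 9.10 in the arrays labelled CPEB3, against 9.72, 9.78 and 9.77 in the arrays labelled NC. Every array labelled CPEB3 lay below every array labelled NC. The difference was -0.57 (SE 0.07, 95% interval -0.72 to -0.42), or 1.48-fold lower (limma, Benjamini-Hochberg adjusted p = 0.000563). The probe set was brighter than 97.7% of all probe sets. With spike-in centring, a choice described further on, the difference was -0.37.

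MAX, the common partner of the other members, was read by 5 probe sets. The brightest, 209332_s_at, gave 8.41, 8.48 and 8.52 in the arrays labelled CPEB3, against 8.64, 8.67 and 8.65 in the arrays labelled NC. The groups did not overlap, but the difference of -0.18 (SE 0.06, 95% interval -0.33 to -0.04) did not pass over all probe sets (limma, Benjamini-Hochberg adjusted p = 0.0889). It passed with an intensity trend in the variance model (limma, adjusted p = 0.00902) and without dim probe sets (limma, adjusted p = 0.0288). The other MAX probe sets, 209331_s_at, 210734_x_at, 208403_x_at and 214108_at, differed by -0.13, -0.11, -0.095 and -0.018, with groups that overlapped and limma adjusted p between 0.366 and 0.929. When each gene stood for itself by its brightest probe set and p-values were adjusted over 19775 genes, MAX passed narrowly (limma, Benjamini-Hochberg adjusted p = 0.046). That call was lost with the mean of its 5 probe sets (-0.11; limma, adjusted p = 0.231), without any 1 of the 6 arrays, and with spike-in centring, where the difference became 0.0097.

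MXD1, an antagonist of MYC that also binds MAX, had the steepest fall of the network. Its probe set 226275_at gave 4.55, 4.77 and 4.66 in the arrays labelled CPEB3, against 5.92, 5.71 and 5.80 in the arrays labelled NC. The gap between the groups was far wider than the spread within either. The difference was -1.15 (SE 0.08, 95% interval -1.34 to -0.96), or 2.22-fold lower (limma, Benjamini-Hochberg adjusted p = 2.38e-05). A second probe set, 228846_at, gave 4.03, 4.16 and 4.21 in the arrays labelled CPEB3, against 5.09, 5.09 and 5.42 in the arrays labelled NC. It was 2.10-fold lower (difference -1.07, SE 0.10; limma, Benjamini-Hochberg adjusted p = 0.000123), so both probe sets gave a like size. The remaining probe set, 206877_at, lay below the array medians in all 6 arrays and did not separate the groups, at 3.60, 3.56 and 3.64 in the arrays labelled CPEB3 and 3.79, 3.56 and 3.42 in the arrays labelled NC (difference 0.0088, 95% interval -0.20 to 0.22). Among all 19775 genes 133 had a larger fall than MXD1, and 0.865% of genes were called at least 2-fold lower.

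MNT, a widely expressed repressor that competes with MYC for MAX, was lower at the brighter of its pair of probe sets. There, at 204206_at, it gave 6.78, 6.83 and 6.85 in the arrays labelled CPEB3, against 7.19, 7.25 and 7.40 in the arrays labelled NC. The groups lay apart, with a difference of -0.46 (SE 0.07, 95% interval -0.63 to -0.29), or 1.37-fold lower (limma, Benjamini-Hochberg adjusted p = 0.00303). The other probe set, 236749_at, was close to the array medians and gave 3.90, 3.82 and 3.81 in the arrays labelled CPEB3 and 3.79, 3.79 and 4.09 in the arrays labelled NC. Its groups overlapped (difference -0.05; limma, adjusted p = 0.788). MNT was past the threshold under each of the 18 alternatives of the gene table, with differences from -0.50 to -0.25.

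MXI1, also called MXD2, is another MAX-binding repressor and was read by 1 bright probe set, 202364_at. It gave 9.71, 9.56 and 9.60 in the arrays labelled CPEB3, against 9.85, 9.91 and 9.85 in the arrays labelled NC. The groups did not overlap, and the difference was -0.24 (SE 0.07, 95% interval -0.40 to -0.09), or 1.18-fold lower (limma, Benjamini-Hochberg adjusted p = 0.0407). The call was not kept on leaving out 5 of the 6 arrays in turn (CPEB3 replicates 2 and 3 and NC replicates 1, 2 and 3, limma adjusted p 0.0704 to 0.145) or with spike-in centring (-0.05). MXD3, an MXD protein linked to S phase, had 1 probe set, 221250_s_at, at 5.60, 5.55 and 5.68 in the arrays labelled CPEB3 and 5.66, 5.77 and 5.64 in the arrays labelled NC. The groups overlapped, and the 95% interval of the difference was -0.23 to 0.08 (-0.08; limma, adjusted p = 0.53).

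MGA, the PRC1.6 scaffold, was read by 4 probe sets that differed among themselves. The brightest, 212945_s_at, gave 6.59, 6.56 and 6.63 in the arrays labelled CPEB3, against 6.86, 6.74 and 6.93 in the arrays labelled NC. Its groups did not overlap, and it was 1.19-fold lower (difference -0.25, SE 0.07; limma, Benjamini-Hochberg adjusted p = 0.0478). This call lies at the threshold and was lost on leaving out any array except NC replicate 2 (limma adjusted p 0.0843 to 0.144), and with quantile normalization repeated, array weights or spike-in centring. At 235409_at the difference was -0.12 and at 230848_s_at 0.0046, with groups that overlapped at both. The probe set 1564640_at was at 0.96, 0.93 and 1.04 in the arrays labelled CPEB3 and 0.90, 1.08 and 0.96 in the arrays labelled NC, dimmer than all but 1.88% of the array, so it says little about MGA. With the mean of its 4 probe sets MGA differed by -0.09 (limma, Benjamini-Hochberg adjusted p = 0.35).

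The scaling changed the gene calls of MAX, MXI1 and MGA, but not those of MYC, MXD1, MNT and MXD3. Other choices, given further on, also removed the calls of MAX, MXI1 and MGA. The 9 hybridization spike-in probe sets of the bacterial and phage controls were dimmer in arrays labelled CPEB3 by 0.19 on average. Their mean ran from 9.73 to 9.88 in the arrays labelled CPEB3 and from 9.99 to 10.01 in the arrays labelled NC. Centring each array, already normalized, on these spike-ins raised every difference by 0.19. The median difference of all genes was then 0.21, against 0.02 as deposited, and 46.7% of genes were called higher and 5.35% lower. The spike-in counts of the lists given further on stand against these shares. With 1 gene value each, 6 of 7 members were lower and 0 higher as deposited, where 12.5% of all genes were lower and 10.9% higher. By mean level 0 of the 7 members lay below the array medians, where 6852 of 19775 genes did. The shares of all genes given beside the members and the lists are not matched for level. With spike-in centring 3 members were lower (MYC, MXD1 and MNT) and 0 higher. All 7 members lay below the median difference of all genes, an order that this centring cannot change because it moves every gene alike. As absolute differences MAX and MXD3 turned to 0.0097 and 0.12 with spike-in centring. MYC, MXD1 and MNT passed under every alternative in which their gene had a value, with MYC from -0.59 to -0.37 and MXD1 from -1.20 to -0.74.

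**Figure D2:**
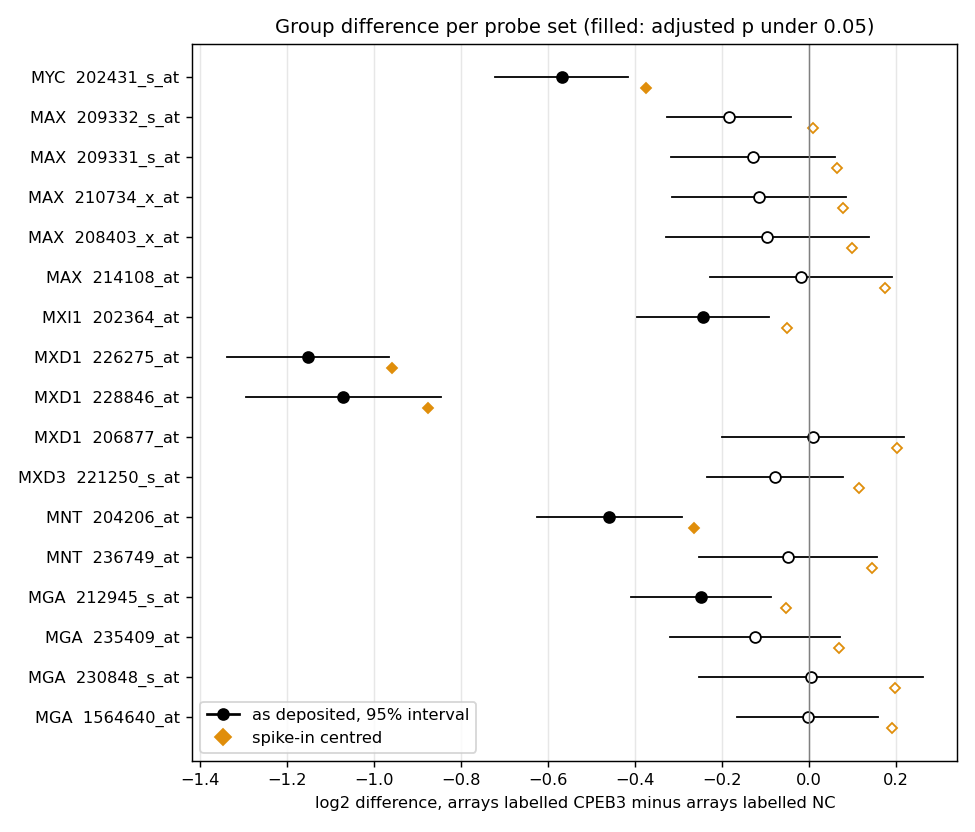
Log2 difference, arrays labelled CPEB3 minus arrays labelled NC, for each of the 17 MYC network probe sets (rows), as deposited (circles with 95% interval from limma) and after centring on the hybridization spike-ins (diamonds); filled symbols have a limma adjusted p under 0.05. As deposited 15 of the 17 circles lie below 0, and the filled diamonds are MYC, MXD1 (2 probe sets) and MNT.

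**Figure D3:**
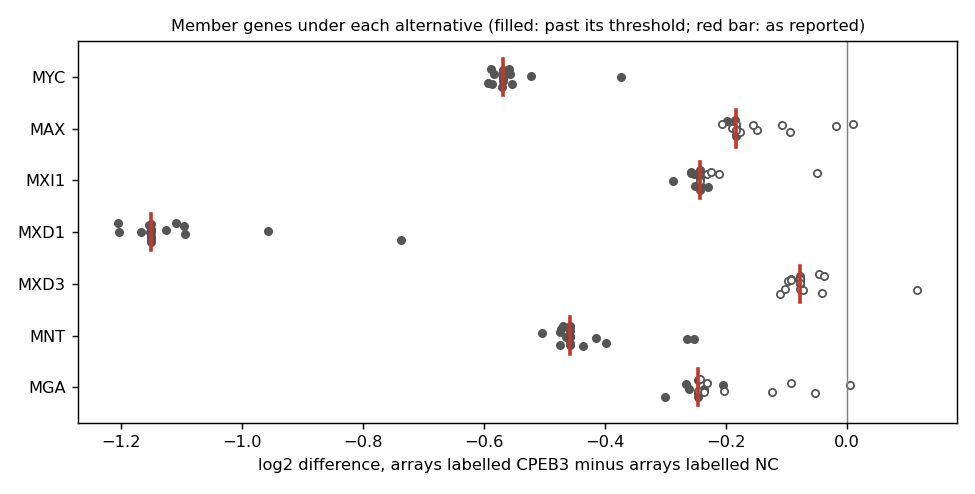
Log2 difference, arrays labelled CPEB3 minus arrays labelled NC, of the 7 member genes (rows) under each processing alternative (points, spread vertically to show overlaps; filled where past the threshold), with a red bar at the reported value. All points of MYC, MXD1 and MNT are filled, those of MXD3 are all open, and MAX, MXI1 and MGA have both kinds.

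The relatives of the network outside the 8 genes did not pass at their brightest probe sets. MYCN and MYCL, the paralogs of MYC, differed by -0.025 (95% interval -0.15 to 0.10) and -0.18 (-0.39 to 0.03). MLX, which forms a parallel network with the glucose-responsive factors MLXIP and MLXIPL, differed by 0.0080, MLXIP by -0.0021 and MLXIPL by -0.0077. The limma Benjamini-Hochberg adjusted p of these 5 genes lay between 0.198 and 0.986. With spike-in centring all 5 differences were above 0 and MLX was called higher (0.20). MLX was also called higher by its most variable probe set (0.35; limma, adjusted p = 0.00898), the 1 of its 6 probe sets that was higher.

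The corepressors through which MXD proteins and MNT act were lower in 7 of 13 measured genes and higher in 1, or 53.8% and 7.69%, where 12.5% of all genes were lower and 10.9% higher. Their median was -0.22 (median of all genes 0.019; 3 lower and 4 higher with spike-in centring), and 4 were lower without CPEB3 replicate 2 or without NC replicate 2. Without probe sets named _s_at or _x_at 3 were lower and 3 higher. The count of higher genes was also 3 with repeated quantile normalization, an intensity trend, no dim genes or the mean of probe sets. SIN3A and SIN3B, the scaffolds that MXD proteins bind, fell by 0.29 and 0.24 on the log2 scale, and the deacetylase HDAC1 fell by 0.22, while HDAC2 was at 0.10 (limma, adjusted p = 0.293). With the mean of their probe sets SIN3A and SIN3B did not pass (-0.19 and -0.11; limma, adjusted p = 0.0745 and 0.313). The SIN3 complex subunit SAP30 had the largest fall, at 7.59, 7.31 and 7.58 in the arrays labelled CPEB3, against 8.38, 8.27 and 8.44 in the arrays labelled NC (difference -0.87, SE 0.09; limma, Benjamini-Hochberg adjusted p = 0.00015). The fall of SAP30 was seen at 3 of its 4 probe sets, and without probe sets named _s_at or _x_at the remaining one gave 0.17. ARID4B fell by 0.51 and ING2 by 0.39, but without _s_at and _x_at probe sets they differed by -0.051 and -0.090 and did not pass (limma, adjusted p = 0.713 and 0.599). The histone chaperone RBBP7 was the 1 gene that rose (0.30).

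Among 10 measured PRC1.6 partners of MGA, 3 were lower and 0 higher (30% lower, against 12.5% of all genes; 1 lower and 2 higher with spike-in centring). Without CPEB3 replicate 2, CPEB3 replicate 3, NC replicate 2 or NC replicate 3 the count of lower partners was 1, and with the replicate block it was 2. RYBP, a Polycomb adaptor, fell by 0.66, its paralog YAF2 by 0.33 and the chromodomain protein CBX1 by 0.21. Without _s_at and _x_at probe sets the sign of RYBP turned, to 0.067, and it did not pass (limma, adjusted p = 0.675). The YAF2 call was kept on leaving out only 1 of the 6 arrays and was lost with the replicate block, with the mean of its probe sets (limma, adjusted p = 0.0571 and 0.0519) and without _s_at and _x_at probe sets (-0.091). CBX1 kept its call on leaving out 2 of the 6 arrays. L3MBTL2 (0.03), PCGF6 (-0.20) and E2F6 (0.0093), which define this complex, did not pass.

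Coactivators and partners of MYC were lower in 8 of 18 measured genes and higher in 0 (44.4% lower, against 12.5% of all genes; median -0.18; 2 lower and 2 higher with spike-in centring). The count of lower genes was 5 without CPEB3 replicate 2, 3 with the mean of probe sets and 2 without _s_at and _x_at probe sets. The acetyltransferases EP300 and CREBBP fell by 0.51 and 0.42 on the log2 scale and the kinase PIM1 by 0.41. CREBBP was lower at 1 of its 4 probe sets, and with their mean it did not pass (-0.16; limma, adjusted p = 0.0646). TRRAP, the scaffold that MYC uses to recruit acetyltransferases, was at -0.15 (limma, adjusted p = 0.154).

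Genes that set the turnover of MYC protein went both ways, with 5 of 21 lower and 3 higher (23.8% and 14.3%, against 12.5% and 10.9% of all genes; 0 lower and 7 higher with spike-in centring; median -0.041). The count of lower genes was 3 without CPEB3 replicate 2, and that of higher genes 1 without CPEB3 replicate 1. The deubiquitinases USP28 (-0.40) and USP37 (-0.39) and the PP2A inhibitor CIP2A (-0.39), each known to stabilise MYC, fell, and so did the ubiquitin ligase subunits SKP2 (-0.24; limma, adjusted p = 0.0158) and FBXO32 (-0.29; limma, adjusted p = 0.0424). The ubiquitin ligases BTRC (0.28), TRIM32 (0.23) and STUB1 (0.22) rose, so ligase genes were called in both directions. With the mean of their probe sets SKP2 and FBXO32 did not pass (-0.098 and -0.026; limma, adjusted p = 0.311 and 0.737). The BTRC and TRIM32 rises were each seen at 1 probe set and were 0.038 and 0.016 with the mean of all probe sets. STUB1 kept its call on leaving out only 1 of the 6 arrays and lost it with the replicate block (limma, adjusted p = 0.0537). FBXW7, the ligase best known for degrading MYC, differed by -0.03 (95% interval -0.20 to 0.15).

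Among 17 measured regulators of MYC mRNA, 7 were lower and 0 higher (41.2% lower, against 12.5% of all genes; 3 and 4 with spike-in centring; median -0.17). The mRNA-destabilising proteins ZFP36 and ZFP36L1 fell by 0.69 and 0.51, and the mRNA-binding protein IGF2BP3, which stabilises MYC mRNA, by 0.64 (-0.05 without _s_at and _x_at probe sets). The arrays measure mRNA, so MYC protein was not measured.

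Classical targets that MYC activates went both ways. Of 29 measured ribosome biogenesis targets, 3 were lower and 3 higher (median -0.02). The shares were 10.3% in each direction, where 12.5% of all genes were lower and 10.9% higher. With spike-in centring 0 were lower and 11 higher, where 5.35% of all genes were lower and 46.7% higher. On leaving out each array in turn 1 to 2 were lower and 0 to 1 higher, so each array moved the counts by 1.5 times or more, and with the replicate block 2 were lower and 1 higher. Fibrillarin (FBL), a nucleolar methyltransferase, fell by 0.36, UBTF, which helps RNA polymerase I, by 0.27 and NOP58 by 0.20, and NOP16 (0.24), WDR12 (0.23) and BYSL (0.20) rose. NOP58 kept its call on leaving out none of the 6 arrays, and UBTF, NOP16, WDR12 and BYSL on leaving out only 1. With the replicate block NOP58, WDR12 and BYSL lost theirs (limma, adjusted p = 0.0599, 0.0549 and 0.0798). The abundant nucleolar proteins NCL (-0.11; limma, adjusted p = 0.184) and NPM1 (-0.04; limma, adjusted p = 0.665) did not pass.

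Of 43 measured metabolic and cell cycle targets, 10 were lower and 7 higher (23.3% and 16.3%, against 12.5% and 10.9% of all genes; median -0.030; 2 lower and 17 higher with spike-in centring). The count of lower genes was 6 without CPEB3 replicate 3 or NC replicate 3, and that of higher genes was 3 without CPEB3 replicate 1 and 4 without CPEB3 replicate 2 or CPEB3 replicate 3. Those that fell most were hexokinase HK2, at 8.82, 8.77 and 8.89 in the arrays labelled CPEB3 against 9.66, 9.78 and 9.74 in the arrays labelled NC, then the amino acid transporter SLC7A5 (-0.48) and the glycolytic enzyme ENO1 (-0.39). HK2 had 1 probe set lower and 1 higher of 3, and with their mean it differed by -0.10 and did not pass (limma, adjusted p = 0.207). LDHA (-0.36), PKM (-0.29) and the glutamine transporter SLC1A5 (-0.33) fell too. HK2, ENO1, LDHA and PKM are glycolytic genes that hypoxia also induces. The phosphatase CDC25A (0.34), the nucleoside diphosphate kinase NME1 (0.32) and the transcription factor E2F2 (0.30) rose, although E2F2 did not pass with the mean of its probe sets (0.12; limma, adjusted p = 0.135). ODC1, the first enzyme of polyamine synthesis and a textbook MYC target, was at 0.14 (limma, adjusted p = 0.122), spermidine synthase SRM at 0.13 and CDK4 at -0.20, and none of these 3 passed as deposited.

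The DNA element that MYC-MAX and MXD-MAX dimers share is the E-box CACGTG, a palindrome that reads the same on both strands. It was searched in the 250 bases before each transcript start in RefSeq promoters (GRCh38.p14), where 6.34% of 35116 promoters hold it. Of the 12 promoters listed for 7 of the 8 members, 2 hold it, that of MNT and that of MXD4. None was found in this window for MAX, MXI1, MXD1, MXD3 or MGA. Among metabolic and cell cycle targets with a promoter entry and a measured value, 16 hold the element, of which 5 fell, 0 rose and 11 did not pass. Among the 21 without it, 4 fell, 7 rose and 10 did not pass. Over all genes 12.5% were lower and 10.9% higher, and these shares were not split by the element. With spike-in centring 2 of the 43 measured targets of this list were lower and 17 higher. HK2, among those that fell, did not pass with the mean of its probe sets (-0.10; limma, adjusted p = 0.207). A link between the element and the direction was not tested. The windows below are shown because they are the letters the network's dimers read, for the 1 measured member that holds one, for the 4 targets holding one that fell most, and for 3 well-known targets that did not pass; capitals mark the E-box and each window runs 5′ to 3′ on the gene's strand.
MNT, chr17:2401238-2401263, minus strand: ctgcccgggcCACGTGtgcgcgcgcc
HK2, chr2:74834966-74834991, plus strand: ttgctgcgccCACGTGggagggagcc
HK2, chr2:74835011-74835036, plus strand: ccggcgagagCACGTGgagagaatcg
SLC7A5, chr16:87869622-87869647, minus strand: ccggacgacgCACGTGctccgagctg
LDHA, chr11:18394368-18394393, plus strand: actcccagcgCACGTGgagcagtctg
LDHA, chr11:18394466-18394491, plus strand: gcccgactcaCACGTGggttcccgca
SLC1A5, chr19:46787328-46787353, minus strand: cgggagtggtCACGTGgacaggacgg
ODC1, chr2:10448026-10448051, minus strand: gggccccgggCACGTGtgcggcgcgc
SRM, chr1:11060202-11060227, minus strand: ggccgggcccCACGTGgcccctggag
CDK4, chr12:57752396-57752421, minus strand: gggtggcggtCACGTGcccagaacgt

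These matches describe letters in a window and not binding, which was not measured. CDK4 has 3 matches in its window, of which the one nearest the start is shown.

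Genes that MYC is known to repress were mostly lower. Of 21 measured, 12 were lower and 3 higher, or 57.1% and 14.3%, against 12.5% and 10.9% of all genes, with a median of -0.34 (7 lower and 6 higher with spike-in centring, median -0.14). NDRG1, a stress and hypoxia induced gene, was at 8.90, 8.76 and 8.93 in the arrays labelled CPEB3, against 10.63, 10.64 and 10.76 in the arrays labelled NC, the largest difference of the list (difference -1.81, SE 0.07; limma, Benjamini-Hochberg adjusted p = 2.68e-07). The zinc finger factor KLF6 fell by 1.12 and the antiproliferative gene BTG1 by 1.03, although BTG1 differed by only -0.09 at the probe set that remains without _s_at and _x_at names. The growth arrest genes GADD45A and GADD45B fell by 0.94 and 0.95, and the cyclin-dependent kinase inhibitors CDKN2B and CDKN1B by 0.52 and 0.35, with CDKN2B losing its call when its probe sets were averaged (-0.22; limma, adjusted p = 0.0952). The inhibitor CDKN1A rose by 0.27, GAS1 by 0.25 and NDRG2 by 0.20. GAS1 and NDRG2 each kept their call on leaving out 2 of the 6 arrays, and the count of higher genes was 0 without CPEB3 replicate 3 and 1 without NC replicate 2. GAS1 did not pass with the mean of its probe sets (0.18; limma, adjusted p = 0.0528), nor NDRG2 with the replicate block (limma, adjusted p = 0.0602).

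**Figure D4:**
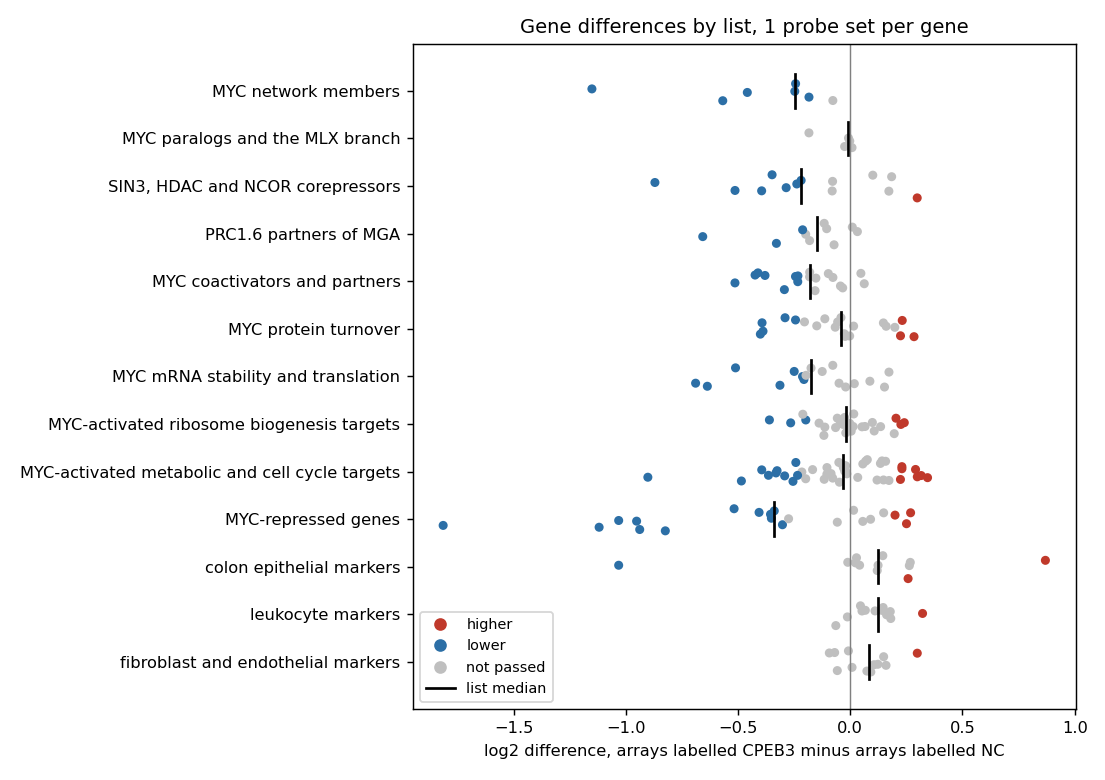
Log2 difference, arrays labelled CPEB3 minus arrays labelled NC, of each measured gene (points) in the MYC network, 9 lists of related genes and 3 lists of cell type markers (rows), as deposited, with a black bar at each list's median; red is higher and blue lower at a limma adjusted p under 0.05, grey did not pass. Blue points number 12 of 21 among MYC-repressed genes, 10 of 43 among metabolic and cell cycle targets, 8 of 18 among coactivators, 7 of 13 among corepressors and 6 of 7 among the members, and both lists of activated targets also have red points.

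Markers of cell types were counted beside these results. The shares higher were 16.7% of colon epithelial, 8.33% of leukocyte and 8.33% of fibroblast and endothelial markers. The shares lower were 8.33%, 0% and 0%. Over all genes 10.9% were higher and 12.5% lower. Of 12 colon epithelial markers, KRT18 (0.26) and KRT20 (0.87) rose and ELF3 fell by 1.03, KRT20 being a keratin of differentiated colon cells. The mean over these markers was 6.98 to 7.03 in the arrays labelled CPEB3 and 6.89 to 6.95 in the arrays labelled NC. Of 12 measured leukocyte markers 1 was higher and 0 lower (ITGAM, 0.32, or -0.095 as an average of its probe sets and -0.51, called lower, by its most variable one; limma, adjusted p = 0.00486), with a mean of 3.53 to 3.62 in the arrays labelled CPEB3 and 3.45 to 3.46 in the arrays labelled NC. Of 12 fibroblast and endothelial markers 1 was higher and 0 lower (DCN, 0.30, a call lost when its 7 probe sets were averaged, at 0.090, by its most variable one, at 0.21, and without _s_at and _x_at probe sets, at -0.099), with means of 3.44 to 3.46 in the arrays labelled CPEB3 and 3.37 to 3.39 in the arrays labelled NC. With spike-in centring 8 epithelial, 9 leukocyte and 6 fibroblast and endothelial markers were called higher. At that setting 46.7% of all genes were called higher, as every difference was raised alike. Their part in the results was not tested.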

How the data were processed

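Affymetrix HG-U133 Plus 2.0 arrays read the RNA of 6 SW480 samples, 3 labelled CPEB3 and 3 labelled NC. The authors deposited a normalized intensity for every probe set on every array, not on a log scale, made with RMA per the submitters' processing notes. Its version and the return from log values are not stated in the labels or the file. RMA brings the probe values of all arrays to one distribution before they are summarised per probe set, so a global shift of RNA content would not show. The summarised values still differed slightly, with array medians of 3.89 to 3.93. Precision is limited by the number of arrays.

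Here log2 was taken. The lmFit and eBayes functions of limma 3.58.1, run under R 4.3.3, tested each difference, two-sided, with group as the only term and a Benjamini-Hochberg threshold of 0.05, over 54613 probe sets without the 62 controls, and over 19775 genes, each by its brightest single-gene probe set. Probe set names come from the platform annotation. The 1801 probe sets with more than 1 symbol were in the probe set test but were set aside for members and the gene table. The 24 list entries without a single-gene probe set, MXD4 among them, were not analysed here. The test was checked on simulated data. Figures used matplotlib 3.10.9.

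Members and lists were chosen with earlier results of these data known. The text names every member probe set and, per list, up to 3 genes past the threshold in each direction with the largest change; SIN3A, SIN3B, HDAC1, HDAC2, L3MBTL2, PCGF6, E2F6, TRRAP, FBXW7, SKP2, FBXO32, NCL, NPM1, LDHA, PKM, SLC1A5, ODC1, SRM, CDK4, GADD45A, GADD45B, CDKN2B, CDKN1B, EPCAM and PTPRC were added after their values were seen. WDR5, SKP2, EIF4E, CBX3, PDGFRB and COL1A2 are in more than 1 list. Alternatives were other scalings, variance models, weights, filters, probe set choices, a replicate block, a stricter threshold (0.01) and leaving out each array.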

Additional observations from a re-analysis of the deposited data

How the results depend on the processing

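Of the 7 member genes, MYC, MXD1 and MNT kept their call under every alternative that gave them a value. MAX, MXI1 and MGA lost theirs under several, and MXD3 passed under none. The count of lower member genes was 6 as reported, 3 with spike-in centring, 3 at a threshold of 0.01, 3 without _x_at and _s_at probe sets, and 3 to 4 on leaving out each array in turn (3 without CPEB3 replicate 2, which keeps MYC, MXD1 and MNT). The count of lower member probe sets was 6 as reported, 3 without _x_at and _s_at probe sets (MYC and the called MGA probe set were not tested there, and MXI1 had a limma adjusted p of 0.0541), and 4 to 5 on leaving out each array. It was 7 with an intensity trend and 7 without dim probe sets, each of which gained MAX 209332_s_at. No member was called higher under any alternative: limma had 0 at an adjusted p under 0.05 in each, and the cause of the lost calls was not tested.

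Deviations of same-numbered arrays from their group means had correlations over genes of 0.00027, -0.0172 and 0.118. Arrays of unlike number had correlations from -0.111 to 0.12. No pairing by number showed, but with 3 arrays per group these values cannot exclude it. With the replicate block 4 member probe sets and 5 member genes were lower, the MXI1 and MGA probe sets and the MAX gene losing their calls (limma, adjusted p = 0.0709, 0.0582 and 0.0749).

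Spike-in centring turned the sign of MAX (0.0097, 0.065, 0.079, 0.10 and 0.18 at its 5 probe sets, 0.0097 as a gene), MXD3 (0.12), MNT 236749_at (0.15) and MGA 235409_at and 1564640_at (0.069 and 0.19), and among related genes MYCN (0.17), MYCL (0.0095), MLXIP (0.19) and MLXIPL (0.19). None of these was past the threshold either way, except MAX as a gene, which passed as reported. Other sign changes near 0 were MXD1 206877_at (-0.0064 with median centring, -0.015 with repeated quantile normalization), MGA 230848_s_at (-0.011 with median centring, -0.022 with array weights), MGA as a gene by its most variable probe set (0.0046), MLX with median centring (-0.0073), and MLXIP and MLXIPL with repeated quantile normalization (0.040 and 0.027). On leaving out each array, differences ran from -0.19 to 0.023 at MAX 208403_x_at, -0.077 to 0.090 at MAX 214108_at, -0.076 to 0.11 at MXD1 206877_at, -0.10 to 0.054 at MNT 236749_at, -0.13 to 0.10 at MGA 230848_s_at, -0.044 to 0.046 at MGA 1564640_at, -0.0011 to 0.017 for MLX, -0.042 to 0.029 for MLXIP and -0.038 to 0.019 for MLXIPL.

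The choice of probe set turned BTRC (-0.024), DCN (-0.10), RYBP (0.067), SAP30 (0.17) and MYCN (0.0023) without _x_at and _s_at probe sets, ITGAM (-0.10), MLXIP (0.086) and MYCN (0.023) with the mean of probe sets, and ITGAM (-0.51), MLXIP (0.33), MYCN (0.21) and TRIM32 (-0.20) with the most variable one. Counts of the lists differed from the reported count by more than 1.5 times in 102 cases, 20 of them with spike-in centring, and by less in 330. Without a detection call, dim probe sets limit what can be said of MGA 1564640_at and MXD1 206877_at.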

Other observations

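The genes whose values followed a member most closely over the 6 arrays were listed by Pearson's r in the gene table. The arrays form 2 groups, so this r mainly follows the group difference, and it is given as a description. For MYC they were the metallothionein MT1G (r = 0.998), TMEM45A (0.998), THRAP3 (0.997), SYNJ2 (0.997) and ZNF200 (0.997), and all 5 were lower in the arrays labelled CPEB3, by 0.27 to 0.62 on the log2 scale. For MXD1 they were WDR45B (0.999) and ZNF469 (0.998), for MNT ZNF7 (0.998) and LOC100310756 (0.998), for MAX AMOTL2 (0.999) and CCNG2 (0.997), for MXI1 AJUBA (0.996) and ASF1A (0.996), and for MGA AHSA2P (0.996) and PTX3 (0.994). The steeper fall of MXD1 (-1.15) was matched in shape by genes with far smaller differences (WDR45B -0.27, ZNF469 -0.20), since r takes no account of size.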
